A study of Mus musculus with 8 samples.

Results

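Cytoplasmic ribosomal protein genes were followed in whole mouse testes that carried a conditional deletion of the gene Dmrt1, whose product is a transcription factor made in Sertoli cells and germ cells. They were taken as genes whose symbol starts with Rpl or Rps and a digit, leaving out the Rps6k kinases. Only probe sets that name exactly 1 gene were used, and where a gene had more than 1, the brightest of them by mean log2 value was kept. The rule gave 48 of 18194 genes, 24 of the large ribosomal subunit (Rpl) and 24 of the small one (Rps) by symbol. Of these, 40 are usual subunits, 20 large and 20 small, and 6 are paralogs whose symbol ends in l or in l and a digit (Rpl3l, Rpl7l1, Rpl22l1, Rpl39l, Rps4l and Rps27l). The other two are the pseudogene Rps15a-ps6 and Rps19bp1, whose product binds Rps19 and is no subunit. The label holds for the usual subunits, while Rps4l stands as a transcribed pseudogene in the annotation used.

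All 8 male mice were 28 days old, of a mixed C57BL6/6J and 129 background, and carried Dmrt1 flox/flox. The Sf1-Cre group (n = 4) expressed Cre recombinase under the Sf1 (Nr5a1) promoter, the Dhh-Cre group (n = 2) under the Dhh promoter, and the control group (n = 2) had the floxed alleles and no Cre. The submitters name both promoters as drivers in Sertoli cells, although Nr5a1 is known to be active in Leydig cells too. Each sample is labelled as a biological replicate and was hybridised to 1 array. Precision is limited by the few arrays, and 2 arrays in a group give little information on spread.

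A ribosome joins ribosomal RNA to a large set of proteins, 1 copy of nearly every protein per ribosome, and cells tend to make these proteins in step. Their mRNAs usually begin with a tract of pyrimidines (C or T) at the cap, through which the kinase mTOR and the protein Larp1 act on their translation. The testis is known for paralogs of usual subunits. X-linked genes are silenced during meiosis in males, and Rpl39l is known in mouse for its use in male germ cells, where its product can take the place of the X-linked subunit Rpl39.

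The start sites of 41 of the 48 genes were found in RefSeq (build GRCm38.p6). The lines below show 60 bases from 35 before to 25 from the start site on, on the gene's strand. They are the usual subunits with the largest changes, the X-linked Rps4x and the pair of Rpl39 and its paralog. Capitals mark the tract, a C followed by at least 4 C or T that begins within 10 bases of the annotated start. 
Rps6, chr4:86857343-86857402, minus strand: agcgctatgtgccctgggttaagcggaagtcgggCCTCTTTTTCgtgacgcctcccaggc
Rpl14, chr9:120571482-120571541, plus strand: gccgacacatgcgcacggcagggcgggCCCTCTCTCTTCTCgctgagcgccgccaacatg
Rpl12, chr2:32961677-32961736, plus strand: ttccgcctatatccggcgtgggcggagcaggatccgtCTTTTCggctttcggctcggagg
Rps4x, chrX:102189367-102189426, minus strand: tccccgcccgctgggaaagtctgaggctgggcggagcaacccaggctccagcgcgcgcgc
Rpl39, chrX:37085198-37085257, minus strand: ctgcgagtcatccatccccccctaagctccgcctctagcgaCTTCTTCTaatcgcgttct
Rpl39l, chr16:10170193-10170252, plus strand: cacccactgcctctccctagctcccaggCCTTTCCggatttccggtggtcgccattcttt
Rps6 has a tract of 10 bases that begins 1 base before the annotated start. The tract of Rpl14 is 14 bases long, and Rpl39l has one of 7 bases. In Rps4x no such tract lies in the window.

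Among 35 usual subunits with a start site, 22 (62.9%) had such a tract within 10 bases of the start, against 34.4% of the 27025 genes in the table. In 7 (20%) the annotated start was itself a C followed by at least 4 C or T, whether or not the tract began before it, against 3.01% of all genes. The letters CCGGAAG, searched on both strands of the longer stretch from 250 bases before to 50 from the start on, most of which is not printed above, were in 17 usual subunits (48.6%), against 9.93% of all genes. AAGATGGC, searched the same way in that longer stretch, was in 3 (8.57%), against 3.19%. TATAAA, searched on the gene's strand from 40 to 16 bases before the start, was in 0 of 35, against 2.41% of all genes. Of 5 paralogs with a start site, 4 had a tract within 10 bases, and in 0 the start was itself such a C. In the longer stretch CCGGAAG was in 2 of them and AAGATGGC in 1, and TATAAA was in 1 in its own stretch. A match describes letters in a window and is not a site of action.

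Before the ribosomal genes, the targeted gene and the state of the arrays were checked. Dmrt1 lay at log2 7.10, 7.89, 7.63 and 7.53 in the Sf1-Cre arrays, at 10.43 and 9.94 in the Dhh-Cre-labelled arrays, and at 8.50 and 8.76 in the control arrays. It was thus lower than control in Sf1-Cre but higher in the Dhh-Cre-labelled arrays, against that label, and where its probe set lies relative to the deleted part was not examined. These Dmrt1 values are without housekeeping centring, described below. Its step of -1.27 in the Dhh-Cre-labelled arrays against control would leave a smaller rise. What the Dmrt1 level in whole testes says of the deletion was not tested. The 3' to 5' signal ratio of Actb, read as a sign of RNA quality, was 9.45 to 13.5 in Sf1-Cre, 9.51 and 13.6 in the Dhh-Cre-labelled arrays, and 4.44 and 4.89 in control. That of Gapdh went the other way in Sf1-Cre, at 1.67 to 2.34, against 1.90 and 3.30 in the Dhh-Cre-labelled arrays and 2.96 and 3.58 in control. Summed intensity of 10 spermatid markers was 876 to 4394 in Sf1-Cre, 1262 to 12210 in the Dhh-Cre-labelled arrays, and 60130 to 65460 in control, with none of the 10 under log2 4 (an intensity of 16, here called the floor) in every array. Over 6 macrophage markers the sum was 15890 to 18650 in Sf1-Cre, 10490 to 10860 in the Dhh-Cre-labelled arrays, and 811 to 864 in control. The sum of 10 spermatocyte markers was 9059 to 18150 in Sf1-Cre, 7926 to 10630 in the Dhh-Cre-labelled arrays, and 27640 to 29550 in control. Sums of 4 Leydig cell markers (17780 to 26740 in mutants, 5138 to 5708 in control) and 6 endothelial markers (308 to 736 in mutants, 152 to 158 in control, with Pecam1 and Cdh5 under the floor in every array) were higher in the mutants. The sum of 8 Sertoli cell markers was 14620 to 16990 in Sf1-Cre, 22250 to 23210 in the Dhh-Cre-labelled arrays, and 11770 to 12700 in control, with Amh under the floor in every array. Under housekeeping centring, described below, the 7 Sertoli markers tested had a median log2 fold change of -0.37 in Sf1-Cre and -0.02 in the Dhh-Cre-labelled arrays, against 0.82 and 1.25 without it. The summed intensity of 8 spermatogonia markers, without centring, was 2624 to 3493 in Sf1-Cre, 4379 to 5244 in the Dhh-Cre-labelled arrays, and 5064 to 5143 in control. Single markers of this list went both ways. In the limma test described below, also without centring, 3 of the 8 passed as higher and 4 as lower in Sf1-Cre. Over all genes 46.6% and 33.2% did. In the Dhh-Cre-labelled arrays 4 passed as higher and 2 as lower, against 49.1% and 30.5% of all genes. The part of these cell types and of the Actb and Gapdh ratios in the results below was not tested, and in whole testes fewer cells of a type and less RNA per cell cannot be told apart.

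The Sf1-Cre arrays were compared with control to ask how the ribosomal protein genes stood in testes with that deletion. Usual subunits rose together: 29 of the 38 tested passed as higher and 0 as lower, where 46.6% of all 13802 genes tested passed as higher, 33.2% as lower and 79.8% in either direction. The test took in genes with 2 or more arrays at or above the floor, which left out Rpl39 and Rps16, and a gene passed with a limma adjusted p under 0.05 over all genes tested. The median log2 fold change of the 38 was 0.72 (quartiles 0.37 and 0.97, range -0.22 to 3.85), or 1.65-fold, against 0.34 over all genes. Under centring of each array on 17 housekeeping genes the median of the usual subunits turned to -0.47, with 5 higher and 24 lower, as that scaling moved the values of all genes by -1.19. The distance of their median from that of all genes was 0.38 under both scalings. Of all passing genes 58.4% were rises without that centring and 27.2% with it. Without it, 13 of the 17 housekeeping genes themselves passed as higher and 1 as lower, with a median log2 fold change of 1.17. Under quantile normalization the median of the usual subunits was 0.73. At an unadjusted p under 0.05 the count of lower usual subunits was 0 as well, in both mutant groups.

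Large and small subunits both moved this way. Of 19 large subunits tested 16 passed as higher, with a median log2 fold change of 0.69, and of 19 small ones 13, with a median of 0.75. Both medians fall below 0 with the housekeeping step of -1.19. All 4 Sf1-Cre arrays lay above both control arrays for 35 of the 38 and below both for 0, where 50% of all genes were above and 36% below. As a spread over arrays, the median change of the usual subunits from the control mean was 0.59, 0.77, 0.76 and 0.72 in the 4 Sf1-Cre arrays, 0.62 and 0.68 in the Dhh-Cre-labelled arrays, and 0.02 and -0.02 in control. The control values mirror each other by construction, as their own mean is subtracted. All mutant arrays lay above both control arrays in this measure.

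**Figure D1:**
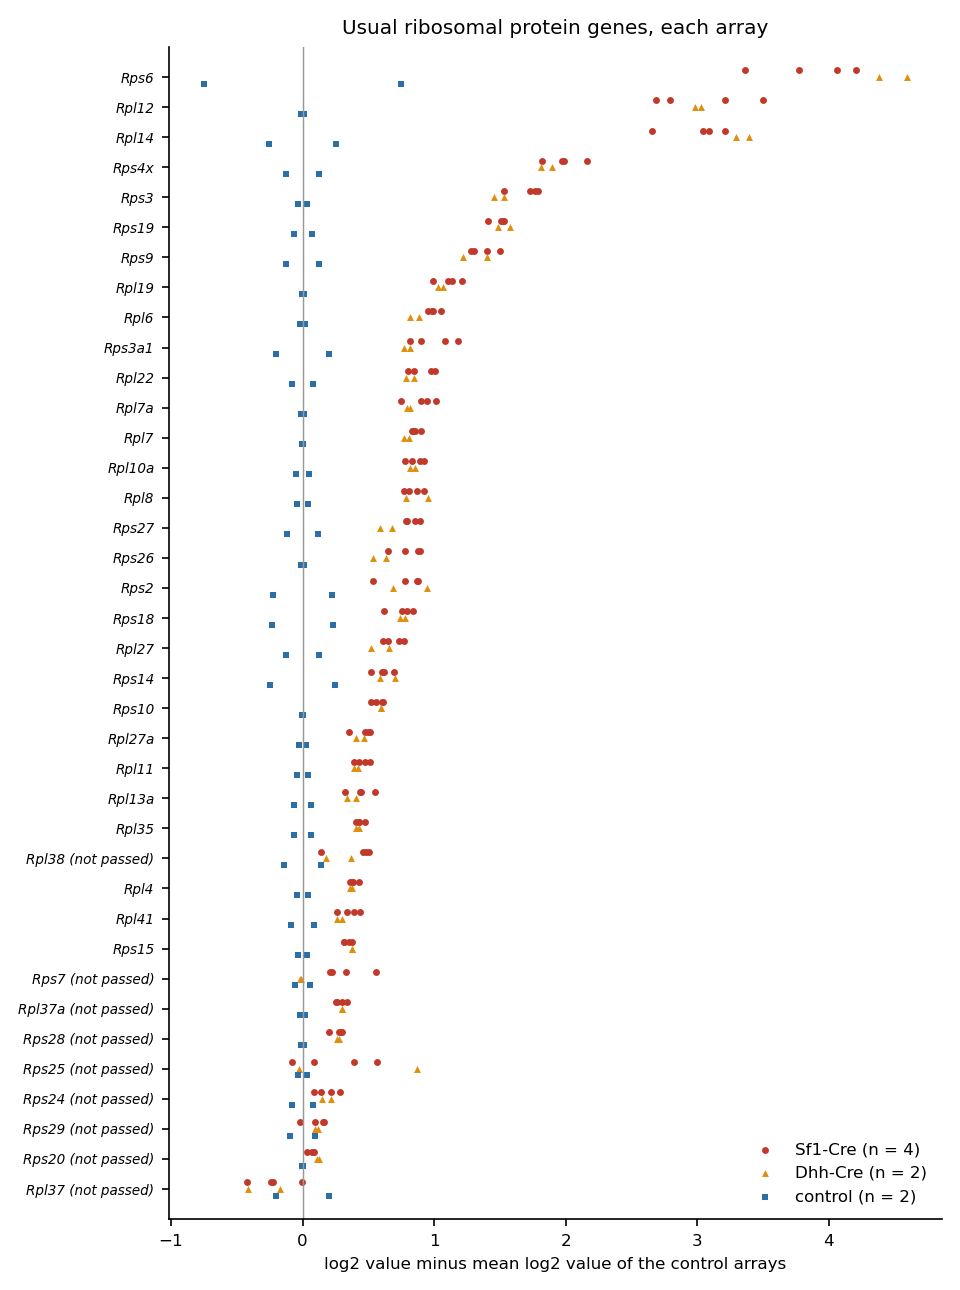
Each point is 1 array, and the x axis gives its log2 value minus the mean log2 value of the control arrays for each of the 38 usual subunits tested, ordered by the fold change in Sf1-Cre. Red circles (Sf1-Cre) and orange triangles (labelled Dhh-Cre) lie right of the blue control squares for most genes, from Rps6 at the top, with log2 fold changes of 3.85 and 4.49, to Rpl37 at the bottom, with -0.22 and -0.29; under housekeeping centring, which is not drawn, both mutant groups shift left by 1.19 and 1.27.

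The largest rises were in Rps6, Rpl12 and Rpl14. Rps6, the small subunit protein that S6 kinases phosphorylate, lay at log2 8.74, 8.89, 8.04 and 8.45 in Sf1-Cre, at 9.06 and 9.28 in the Dhh-Cre-labelled arrays, and at 5.43 and 3.94 in control. The control arrays differed by more than a log2 unit, with 1 of the 2 under the floor, but all mutant arrays were above both. It rose 14.4-fold in Sf1-Cre (log2 fold change 3.85 ± 0.41 SE, adjusted p = 5.87e-05) and 22.4-fold in the Dhh-Cre-labelled arrays (4.49 ± 0.47 SE, adjusted p = 5.99e-05). Without control replicate 1 or 2 the log2 fold change of Rps6 was 4.60 or 3.10 in Sf1-Cre and 5.23 or 3.74 in the Dhh-Cre-labelled arrays. Rpl12, a protein of the large subunit stalk base, lay at 8.17, 8.07, 8.59 and 8.88 in Sf1-Cre, at 8.36 and 8.41 in the Dhh-Cre-labelled arrays, and at 5.39 and 5.37 in control. The groups did not overlap, with a rise of 8.27-fold (3.05 ± 0.23 SE, adjusted p = 1.11e-05) in Sf1-Cre and 8.04-fold in the Dhh-Cre-labelled arrays. Rpl14, another large subunit protein, lay at 8.34, 8.77, 8.89 and 8.73 in Sf1-Cre, at 8.98 and 9.08 in the Dhh-Cre-labelled arrays, and at 5.43 and 5.94 in control. It rose 8.0-fold (3.00 ± 0.21 SE, adjusted p = 6.56e-06) in Sf1-Cre and 10.2-fold in the Dhh-Cre-labelled arrays. These 3 kept their direction and passed under all 21 alternatives, housekeeping centring included.

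How large the rise of these 3 genes was depended on the probe set. In a fit over 25791 probe sets, the 8 tested of 9 sets that name both Rps6 and its pseudogene Rps6-ps4 had log2 fold changes of -0.27 to 0.65 in Sf1-Cre, and 1 of them passed. In the Dhh-Cre-labelled arrays they ranged from -0.09 to 0.22, and 0 passed (adjusted p 0.258 to 0.738). The Rps6 rise was seen on 1 of 2 sets that name Rps6 alone, and the other was under the floor in every array. For Rpl14 all 5 sets shared with Rpl14-ps1 rose, by 1.08 to 1.44 in Sf1-Cre and by 0.98 to 1.46 in the Dhh-Cre-labelled arrays. Under housekeeping centring these 5 lay at -0.11 to 0.25 in Sf1-Cre and at -0.30 to 0.18 in the Dhh-Cre-labelled arrays. Rpl12 on a set shared with Gm11425 rose by 1.16 ± 0.14 SE in Sf1-Cre, and lay at -0.03 under housekeeping centring. On a set shared with Gm11425, Gm15793 and Gm32899 it rose by 0.45 ± 0.16 SE in Sf1-Cre (adjusted p = 0.0329), and lay at -0.74 under that centring. Transcripts of near-identical copies cannot be told apart on such sets, so the size is uncertain for all 3 genes.

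After these and Rps4x, which is described with the X-linked genes, the next largest rises were in Rps3 and Rps19. Rps3, at the mRNA entry of the ribosome and also known in DNA repair, lay at log2 12.71, 12.95, 12.97 and 12.91 in Sf1-Cre, at 12.71 and 12.63 in the Dhh-Cre-labelled arrays, and at 11.15 and 11.22 in control. It rose by 1.70 ± 0.13 SE in Sf1-Cre (adjusted p = 1.26e-05), and by 0.51 under housekeeping centring. Rps19, needed to mature the small subunit and known from inherited anaemia in humans, lay at 12.45, 12.57, 12.58 and 12.55 in Sf1-Cre, at 12.62 and 12.53 in the Dhh-Cre-labelled arrays, and at 11.11 and 10.97 in control. Its rise was 1.49 ± 0.13 SE (adjusted p = 1.73e-05), with 0.30 and adjusted p = 0.066 under housekeeping centring. Rps9, a small subunit protein near the mRNA entry, rose by 1.37 ± 0.14 SE, and Rpl19, of the large subunit, by 1.11 ± 0.13 SE, with 0.18 and -0.08 under housekeeping centring. On the sets used, every mutant array was above both control arrays for all 4. Another set that names Rps9 alone went the other way in Sf1-Cre and is described below.

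The 9 usual subunits that did not pass in Sf1-Cre were Rpl37, Rpl37a, Rpl38, Rps7, Rps20, Rps24, Rps25, Rps28 and Rps29. The smallest estimates were 0.07 ± 0.12 SE for Rps20, 0.10 ± 0.13 SE for Rps29, 0.18 ± 0.13 SE for Rps24 and -0.22 ± 0.18 SE for Rpl37, each of which was negative under housekeeping centring, at -1.12, -1.09, -1.01 and -1.41. Rps29, a zinc-binding protein of the small subunit head, lay at log2 13.70, 13.81, 13.88 and 13.87 in Sf1-Cre, at 13.83 and 13.81 in the Dhh-Cre-labelled arrays, and at 13.81 and 13.62 in control, so the groups overlapped. Rpl37 lay between log2 3.89 and 4.51 in all arrays, close to the floor. On a brighter set shared with Rpl37rt it lay at 11.88 to 12.49 in Sf1-Cre, and at 11.62 and 11.63 in control. The arrays labelled Dhh-Cre lay at 12.07 and 11.99 there. On another shared set the groups overlapped, at 13.66 to 13.83 in Sf1-Cre and 13.79 in both control arrays. The brightest value on any array was log2 13.9 to 14.2, and changes were smaller in the brightest genes. The 14 usual subunits with a mean of log2 13 or above had a median log2 fold change of 0.39, the 16 between 12 and 13 one of 0.88, and the 8 under 12 one of 0.80. Whether the bright sets were limited by the range of the array was not tested.

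Other sets for the same genes gave larger values in some cases and similar ones in others. Rps24, a small subunit protein, had 5 further sets, of which 1 was under the floor in every array and was not tested, and another lay at log2 8.68, 8.66, 8.78 and 9.04 in Sf1-Cre, at 8.38 and 8.14 in the Dhh-Cre-labelled arrays, and at 6.46 and 6.07 in control. That set rose by 2.53 ± 0.18 SE in Sf1-Cre and by 1.99 ± 0.21 SE in the Dhh-Cre-labelled arrays, while the set used had 0.18 in both. The remaining tested sets of Rps24 differed little, like the set used. They lay at log2 12.89 to 13.29 in Sf1-Cre and at 12.72 to 13.23 in control. For Rps20 a set at log2 4.30 to 5.15 in the mutants and 3.34 and 3.41 in control passed as higher in both. As both control arrays were under the floor, its rise is given as a bound against the floor, at least 1.89-fold in Sf1-Cre and at least 1.32-fold in the Dhh-Cre-labelled arrays. A bright further set of Rps20 had means of log2 13.40 in Sf1-Cre, 13.43 in the Dhh-Cre-labelled arrays and 13.24 in control. Among 48 other tested sets of 20 genes, 44 had the sign of the set used in Sf1-Cre and 45 in the Dhh-Cre-labelled arrays. Leaving out sets with the suffixes _x_at and _s_at, which mark probes shared between transcripts, gave a median of 0.86 in Sf1-Cre.

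The arrays labelled Dhh-Cre were compared with the same 2 control arrays, so both comparisons share them, and directions here concern arrays whose Dmrt1 level went against the label. Of 38 usual subunits 27 passed as higher and 0 as lower, where 49.1% of all genes passed as higher, 30.5% as lower and 79.6% in either direction. Their median log2 fold change was 0.62 (range -0.29 to 4.49), against 0.54 over all genes, a distance of 0.08 (0.16 under quantile normalization). Under housekeeping centring, with a step of -1.27, the median was -0.66, with 4 higher and 27 lower, and of all passing genes 28.3% were rises with that centring and 61.7% without. Both arrays lay above both controls for 34 of the 38 and below both for 0, where 56% of all genes were above and 35.1% below. Of 19 large subunits 14 rose, and of 19 small ones 13. The 11 that did not pass were Rpl13a, Rpl37, Rpl37a, Rpl38, Rpl41, Rps7, Rps20, Rps24, Rps25, Rps28 and Rps29. Without the 3 arrays in which Spink8, a gene of the epididymis, reached log2 10, 16 of the usual subunits passed as higher, with a median of 0.68 and only 1 array left in the group.

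**Figure D2:**
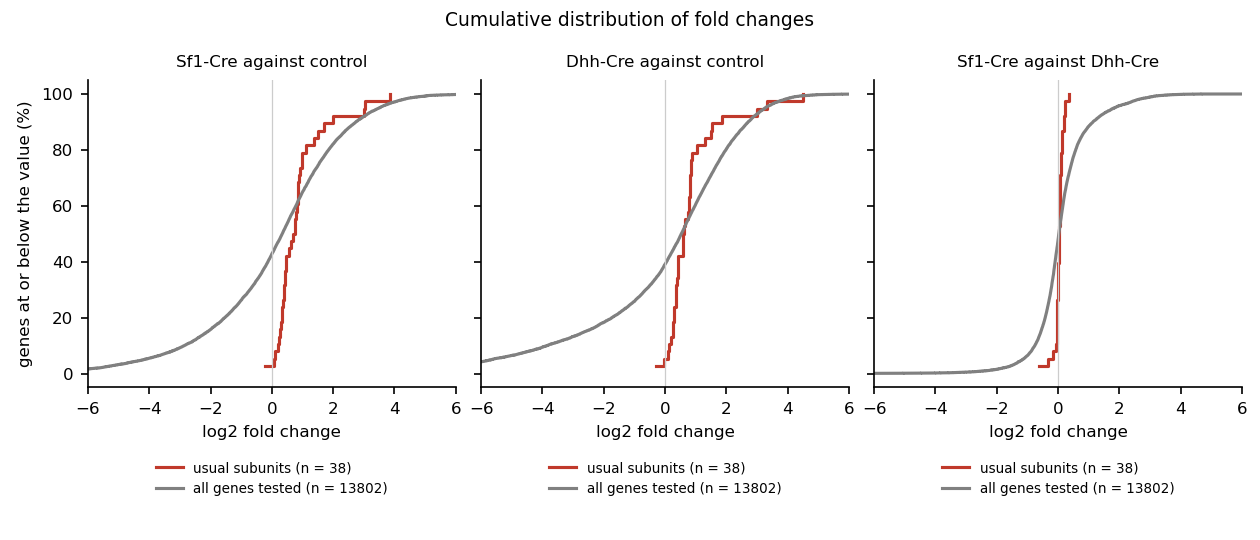
Each line gives the percent of genes (y axis) at or below a log2 fold change (x axis) for the 38 usual subunits tested (red) and all 13802 genes tested (grey), in Sf1-Cre against control, the Dhh-Cre-labelled arrays against control, and Sf1-Cre against the Dhh-Cre-labelled arrays. The red lines rise within a narrow range right of 0 in the first 2 panels, with medians of 0.72 and 0.62, and close to 0 in the third; housekeeping centring, not drawn, moves both lines of the first panel left by 1.19 and of the second by 1.27, which puts the red medians below 0.

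Sf1-Cre was then compared with the Dhh-Cre-labelled arrays, to ask whether the drivers differed. By limma 0 of 44 tested members passed, where 24.6% of all genes did (12.9% higher, 11.8% lower). At an unadjusted p under 0.05 there were 2 members, Rps7 (0.35 ± 0.15 SE) and Rps19bp1 (-0.49 ± 0.19 SE). Trended robust limma called 1 usual subunit as higher, and the mean of all probe sets per gene 1 as lower. Estimates of the usual subunits ran from -0.64 (Rps6, adjusted p = 0.292) to 0.35 (Rps7), with a median of 0.03, and this does not show that the lines are alike. All 4 Sf1-Cre arrays lay above both Dhh-Cre-labelled arrays for 6 of the 38 and below for 3, where 24.5% and 23.2% of all genes did.

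X-linked subunits were looked at together, since 4 of the 73 usual subunits on the list lie on the X chromosome. Rps4x, the X-linked small subunit gene, lay at log2 12.62, 12.78, 12.97 and 12.79 in Sf1-Cre, at 12.70 and 12.61 in the Dhh-Cre-labelled arrays, and at 10.93 and 10.68 in control. It rose 3.96-fold in Sf1-Cre (1.99 ± 0.15 SE, adjusted p = 1.04e-05) and 3.61-fold in the Dhh-Cre-labelled arrays (1.85 ± 0.17 SE, adjusted p = 3.53e-05), and passed in all 21 alternatives. The other three are seen only on sets that share symbols, or in the case of Rpl39 also on a set under the floor. Rpl10, a large subunit protein that joins late in assembly, on a set shared with Gm5621, lay at 13.24, 13.39, 13.51 and 13.22 in Sf1-Cre, at 13.11 and 13.16 in the Dhh-Cre-labelled arrays, and at 11.30 and 11.16 in control. Its rise was 2.11 ± 0.15 SE in Sf1-Cre (adjusted p = 5.43e-06) and 1.91 ± 0.17 SE in the Dhh-Cre-labelled arrays.

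Rpl36a, a large subunit protein, on a set shared with its autosomal copy Rpl36al, lay at 12.69, 12.85, 13.17 and 12.80 in Sf1-Cre, at 12.72 and 12.76 in the Dhh-Cre-labelled arrays, and at 10.91 and 10.68 in control. It rose by 2.08 ± 0.17 SE in Sf1-Cre and 1.95 ± 0.20 SE in the Dhh-Cre-labelled arrays. A set that names Dnaaf2 besides both copies did not pass, at 0.34 ± 0.14 SE in Sf1-Cre and 0.21 ± 0.17 SE in the Dhh-Cre-labelled arrays. Rpl39 on the set shared with Gm32211 lay at 13.48, 13.57, 13.51 and 13.53 in Sf1-Cre, at 13.59 and 13.60 in the Dhh-Cre-labelled arrays, and at 12.27 and 12.68 in control. That set rose by 1.05 ± 0.15 SE in Sf1-Cre (adjusted p = 0.000346) and 1.12 ± 0.18 SE in the Dhh-Cre-labelled arrays (adjusted p = 0.00054), with -0.14 in Sf1-Cre and -0.16 in the Dhh-Cre-labelled arrays under housekeeping centring. The Rps4x, Rpl10 and Rpl36a sets stayed above 0 under that centring, at 0.80, 0.92 and 0.895 in Sf1-Cre.

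**Figure D3:**
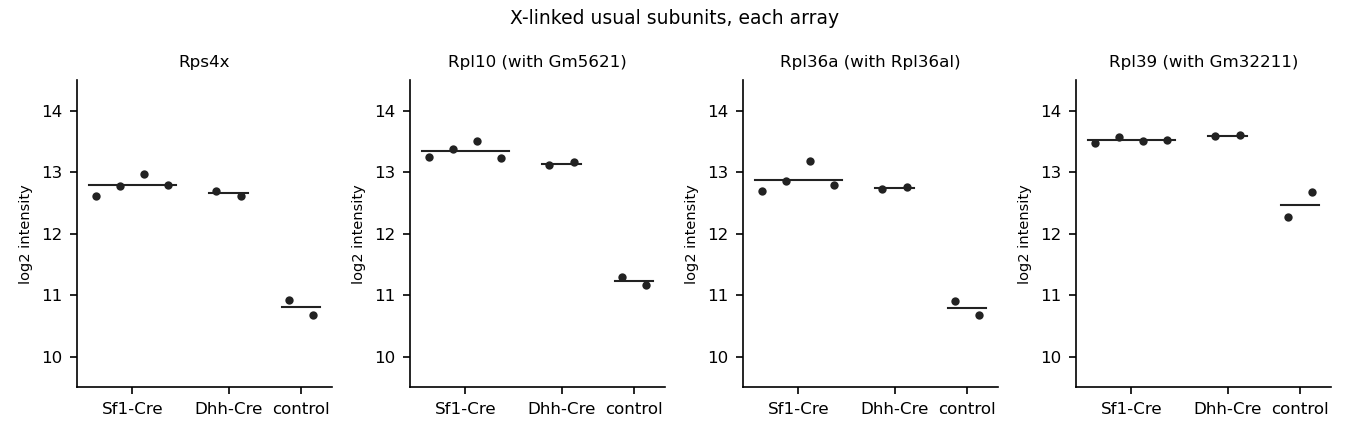
Points are single arrays, lines are group means, and the y axis is log2 intensity from 9.5 up, for Rps4x and for the sets that hold Rpl10, Rpl36a and Rpl39 together with the genes named. In each panel all mutant arrays lie above both control arrays, by 1.05 (Rpl39) to 2.11 (Rpl10) in the Sf1-Cre mean; with housekeeping centring, not drawn, the Rpl39 difference turns to -0.14.

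Among the paralogs Rpl39l was the only member that passed as lower in either mutant group, where 33.2% and 30.5% of all genes did. It lay at log2 12.39, 12.14, 11.70 and 11.58 in Sf1-Cre, at 11.70 and 12.04 in the Dhh-Cre-labelled arrays, and at 12.63 and 12.73 in control. All mutant arrays were below both control arrays, and the Sf1-Cre arrays ranged from 11.58 to 12.39. The fall was -0.72 ± 0.25 SE in Sf1-Cre (adjusted p = 0.0267) and -0.81 ± 0.29 SE in the Dhh-Cre-labelled arrays (adjusted p = 0.0306). It was weakly held: without control replicate 1, control replicate 2 or Sf1-Cre replicate 3 the adjusted p in Sf1-Cre was 0.0854, 0.124 and 0.0617. In the Dhh-Cre-labelled arrays it was 0.0811 and 0.116 without either control array and 0.147 without Dhh-Cre replicate 1, which leaves a lone array that is assumed to vary like the other groups. Over 21 alternatives the adjusted p ran from 0.000188 to 0.145 in Sf1-Cre and from 0.000309 to 0.147 in the Dhh-Cre-labelled arrays.

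The fall of Rpl39l stood against a rise of most usual subunits in the same arrays. Its change from the control mean minus the median change of the usual subunits was -0.87, -1.31, -1.73 and -1.82 in Sf1-Cre, -1.59 and -1.32 in the Dhh-Cre-labelled arrays, and -0.07 and 0.07 in control. A shift common to an array cancels in this measure, and the control values mirror each other by construction. Rpl39, the subunit Rpl39l is named after, lay at log2 3.64 to 3.84 in Sf1-Cre, at 3.97 and 3.79 in the Dhh-Cre-labelled arrays, and at 3.98 and 3.79 in control on the set that names it alone. All arrays were under the floor there, so the within-array difference of this pair is not given. The set shared with Gm32211, described above, rose while Rpl39l fell, and under housekeeping centring that set lay at -0.14 in Sf1-Cre.

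Rps4l, which the annotation gives as a transcribed pseudogene on chromosome 6, lay at log2 8.78, 9.13, 9.21 and 8.77 in Sf1-Cre, at 9.52 and 9.10 in the Dhh-Cre-labelled arrays, and at 9.18 and 9.26 in control. The groups overlapped, and it did not pass (-0.25 ± 0.19 SE, adjusted p = 0.255 in Sf1-Cre, and 0.09 ± 0.22 SE, adjusted p = 0.735 in the Dhh-Cre-labelled arrays), with -1.44 and -1.19 under housekeeping centring. The within-array difference of Rps4l and Rps4x was -3.82 ± 0.16 in Sf1-Cre (SD, n = 4), -3.35 ± 0.23 in the Dhh-Cre-labelled arrays (SD, n = 2) and -1.58 ± 0.23 in control (SD, n = 2). The 2 genes thus changed by unequal amounts, by -2.24 in Sf1-Cre and -1.77 in the Dhh-Cre-labelled arrays. The exact 2-sided permutation test gave p = 0.133 for Sf1-Cre and p = 0.333 for the Dhh-Cre-labelled arrays, the smallest p each design allows, and 0.267 and 0.436 adjusted over 12 tests (4 pairs in 3 comparisons).

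Rpl22l1, the paralog of the RNA-binding large subunit protein Rpl22, lay at log2 12.27, 12.25, 12.32 and 12.32 in Sf1-Cre, at 12.02 and 12.17 in the Dhh-Cre-labelled arrays, and at 11.80 and 12.06 in control. It passed as higher in Sf1-Cre (0.36 ± 0.14 SE, adjusted p = 0.0387) and as lower under housekeeping centring (-0.83). It did not pass in the Dhh-Cre-labelled arrays (0.17 ± 0.16 SE, adjusted p = 0.352). In Sf1-Cre it missed without control replicate 1 (adjusted p = 0.246) and without any 1 of the Sf1-Cre arrays (0.0555 to 0.0795), and over 21 alternatives the adjusted p ran from 0.00138 to 0.246. Rpl22 itself rose by 0.91 ± 0.13 SE in Sf1-Cre and 0.82 ± 0.15 SE in the Dhh-Cre-labelled arrays, and passed as neither under housekeeping centring in Sf1-Cre (-0.28, adjusted p = 0.106). The pair's within-array difference changed by -0.55 in Sf1-Cre and -0.65 in the Dhh-Cre-labelled arrays, and in both mutant groups every array was below both control arrays (exact permutation p = 0.133 and 0.333).

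Rps27l, known in mouse and humans as a target of p53, lay at log2 12.44, 12.42, 12.27 and 12.28 in Sf1-Cre, at 12.38 and 12.50 in the Dhh-Cre-labelled arrays, and at 11.61 and 12.01 in control. It rose by 0.54 ± 0.16 SE in Sf1-Cre (adjusted p = 0.0121) and 0.63 ± 0.18 SE in the Dhh-Cre-labelled arrays (adjusted p = 0.0118), and passed as lower under housekeeping centring (-0.65 and -0.64). Without control replicate 1 the adjusted p was 0.115 in Sf1-Cre and 0.0785 in the Dhh-Cre-labelled arrays, the highest of 21 alternatives, and the lowest were 0.00199 and 0.00191. Rps27, a small subunit protein, lay at 5.05, 5.12, 5.15 and 5.06 in Sf1-Cre, at 4.85 and 4.94 in the Dhh-Cre-labelled arrays, and at 4.38 and 4.15 in control on the set that names it alone, close to the floor. On that set it rose by 0.83 ± 0.13 SE in Sf1-Cre (-0.36 under housekeeping centring). A brighter set shared with Rps27rt, not used for the pair, lay at 13.61, 13.72, 13.71 and 13.67 in Sf1-Cre. It lay at 13.71 and 13.57 in the Dhh-Cre-labelled arrays and at 13.34 and 13.27 in control. The pair's difference changed by -0.29 and -0.01, with overlapping groups (exact permutation p = 0.4 and 1.0), and its sign turned in some alternatives.

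Rpl7l1, whose product is known to act in large subunit assembly, rose the most among the paralogs. It lay at log2 10.09, 10.32, 10.66 and 10.84 in Sf1-Cre, at 10.88 and 10.89 in the Dhh-Cre-labelled arrays, and at 8.50 and 8.48 in control. It rose 3.97-fold (1.99 ± 0.22 SE, adjusted p = 6.79e-05) in Sf1-Cre and 5.26-fold (2.39 ± 0.25 SE, adjusted p = 5.84e-05) in the Dhh-Cre-labelled arrays, and stayed higher under housekeeping centring (0.80 and 1.12). Its other 2 sets rose by 1.66 and 1.70 in Sf1-Cre. Rpl7 rose by 0.86 ± 0.12 SE in Sf1-Cre, so the pair's difference changed by 1.13 in Sf1-Cre and 1.60 in the Dhh-Cre-labelled arrays, without overlap (exact permutation p = 0.133 and 0.333). Rpl3l, known for its use in striated muscle, was under the floor in all arrays, at 2.98 to 3.87 in Sf1-Cre, at 3.47 and 3.00 in the Dhh-Cre-labelled arrays, and at 2.64 and 2.85 in control.

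**Figure D4:**
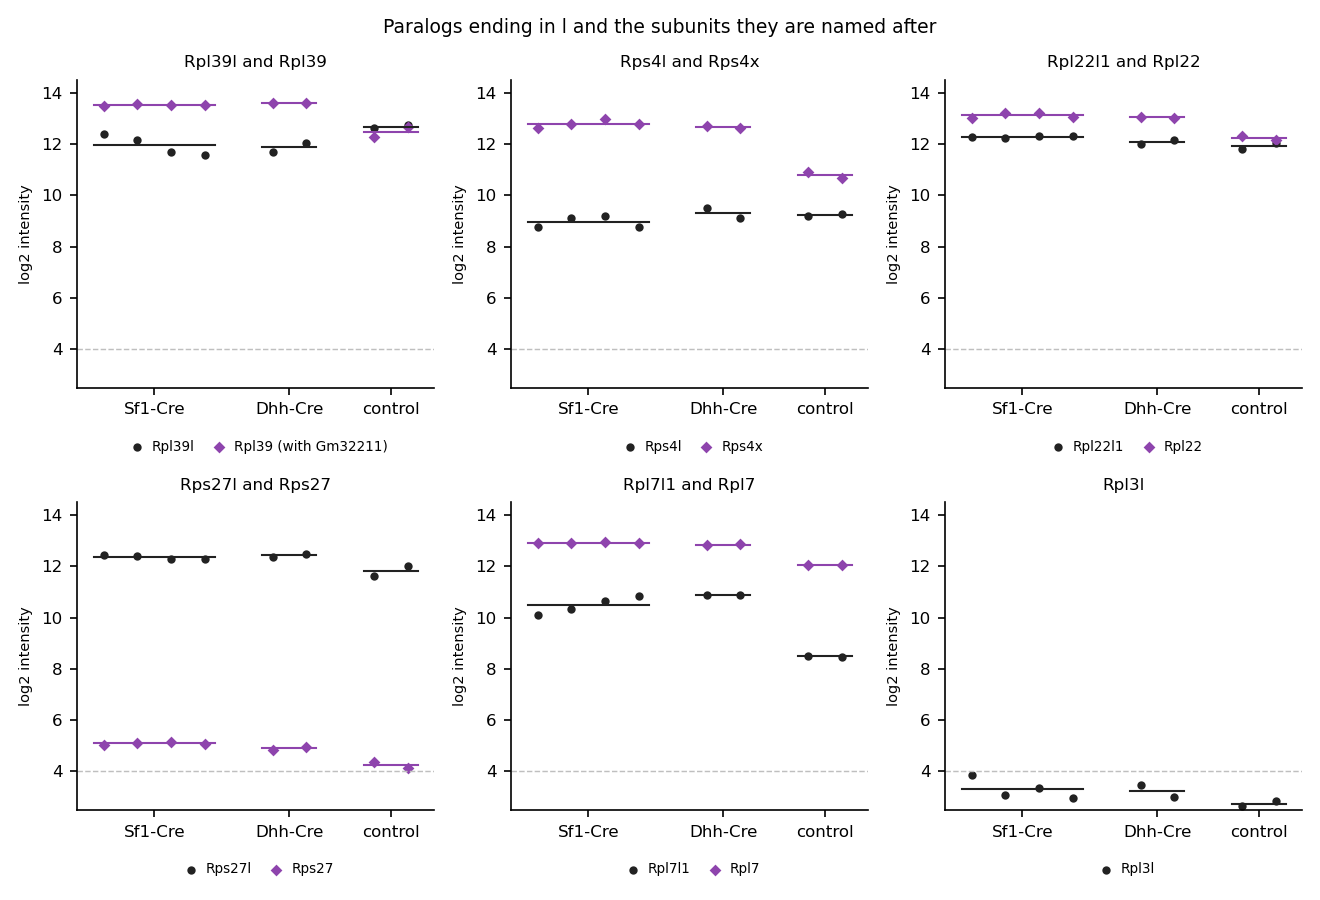
Points are single arrays, lines are group means, the y axis is log2 intensity and the dashed line is the floor at log2 4, with each paralog in black and the subunit it is named after in purple (for Rpl39 the set shared with Gm32211). Rpl39l fell by 0.72 in the Sf1-Cre mean, Rps4l differed by -0.25 and Rpl7l1 by 1.99; heights of 2 probe sets are not comparable, only their changes, and under housekeeping centring, not drawn, Rpl22l1 and Rps27l turn to -0.83 and -0.65 in Sf1-Cre.

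The paralogs were also compared between the drivers. None of the 5 tested passed in Sf1-Cre against the Dhh-Cre-labelled arrays, where estimates ran from -0.41 (Rpl7l1, adjusted p = 0.209) to 0.19 (Rpl22l1, adjusted p = 0.34). The pair difference of Rpl7l1 and Rpl7 was -2.44 ± 0.33 in Sf1-Cre (SD, n = 4) and -1.97 ± 0.01 in the Dhh-Cre-labelled arrays (SD, n = 2), without overlap. Those of Rps4l with Rps4x and of Rps27l with Rps27 differed by -0.47 and -0.28, also without overlap. For these 3 pairs the exact permutation p was 0.133, the smallest this design allows. The pair of Rpl22l1 and Rpl22 differed by 0.10 with overlap (exact permutation p = 0.4).

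The remaining members were of other kinds. Rps19bp1, which binds Rps19 and activates the deacetylase Sirt1, lay at log2 9.10, 9.03, 9.21 and 9.54 in Sf1-Cre, at 9.83 and 9.59 in the Dhh-Cre-labelled arrays, and at 8.16 and 8.42 in control. It rose by 0.93 ± 0.19 SE in Sf1-Cre (adjusted p = 0.00205) and 1.42 ± 0.21 SE in the Dhh-Cre-labelled arrays (adjusted p = 0.000422). Under housekeeping centring it lay at -0.27 in Sf1-Cre and 0.14 in the Dhh-Cre-labelled arrays. Rps16 and Rps15a-ps6 were under the floor in all arrays, at 1.12 to 1.66 and 2.58 to 3.27.

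Of the 73 usual subunits, 33 have no set that names them alone, and 26 of these are seen only on sets with several symbols. In total 100 tested sets with several symbols hold a usual subunit or an l paralog, and these include sets of members already counted above. Of these sets 69 passed as higher and 0 as lower in Sf1-Cre, with a median of 0.60. Over all 25791 probe sets tested, 45.9% passed as higher, 31.6% as lower and 77.5% in either direction. In the Dhh-Cre-labelled arrays 54 passed as higher and 1 as lower, with a median of 0.47, where 49.1% of all probe sets passed as higher, 28.8% as lower and 77.9% in either direction. Adding 1 such set for each of 24 usual subunits gave 46 higher of 62 in Sf1-Cre and 41 of 62 in the Dhh-Cre-labelled arrays. These sets count pseudogenes and copies as well, so a change in them cannot be given to 1 gene. Both medians turn below 0 with the housekeeping steps.

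Sets of Rps9 and Rps19 went apart from the rest of their gene. Rps9 has a set at log2 9.69, 9.98, 10.28 and 9.67 in Sf1-Cre, at 13.53 and 13.55 in the Dhh-Cre-labelled arrays, and at 12.44 and 12.58 in control. It fell by 2.61 in Sf1-Cre and rose by 1.03 in the Dhh-Cre-labelled arrays (-0.25 under housekeeping centring), while the set used rose in both. A further Rps9 set lay at 6.30, 5.63, 6.27 and 6.22 in Sf1-Cre, at 6.18 and 5.75 in the Dhh-Cre-labelled arrays, and at 3.55 and 3.21 in control, and rose in both. The set that names Rps19 and Rps19-ps3 lay at 7.58, 7.63, 8.10 and 7.95 in Sf1-Cre, at 3.53 and 3.51 in the Dhh-Cre-labelled arrays, and at 7.01 and 6.86 in control. The arrays labelled Dhh-Cre were under the floor there and those of the other groups above it, whereas the set that names Rps19 alone rose in both mutant groups.

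**Figure D5:**
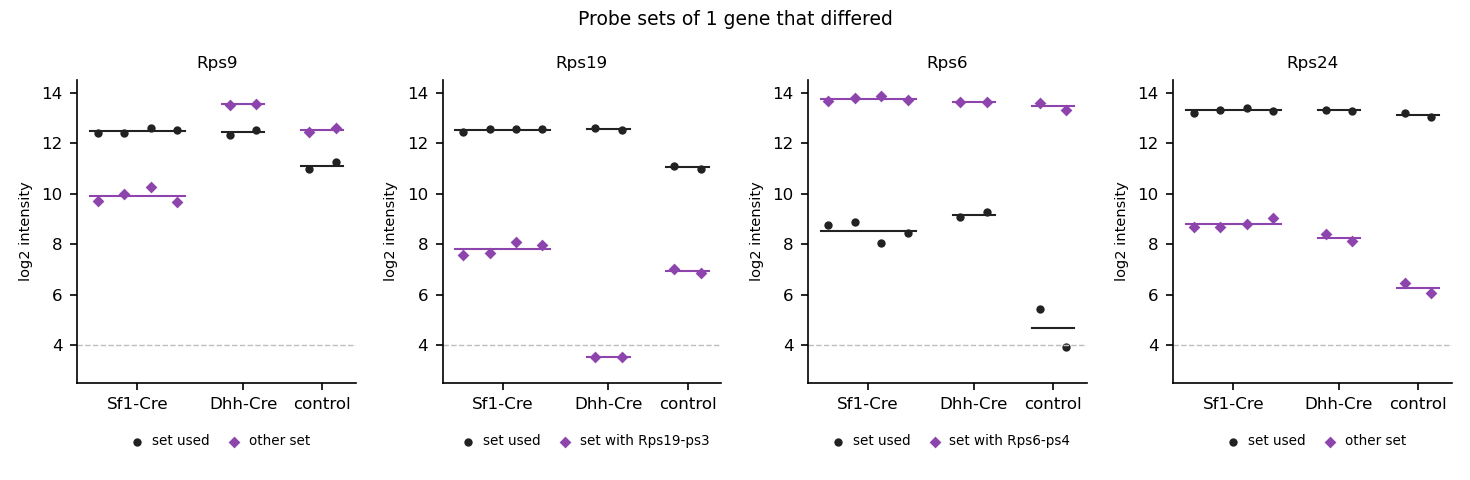
Points are single arrays, lines are group means, the y axis is log2 intensity and the dashed line is the floor at log2 4, with the set used for Rps9, Rps19, Rps6 and Rps24 in black and another set that holds the same gene in purple. For Rps9 the purple set is lowest in Sf1-Cre and highest in the Dhh-Cre-labelled arrays, for Rps19 it is under the floor in those arrays but not in the others, for Rps6 the purple set is nearly level where the black one rose by 3.85, and for Rps24 the purple one rose by 2.53.

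Other genes of translation were read from lists that were drawn up with earlier results of these data known. Their counts stand beside the 46.6% of all genes tested that passed as higher in Sf1-Cre and the 33.2% that passed as lower. Of subunits outside the symbol rule all 4 tested rose in Sf1-Cre, and also in the Dhh-Cre-labelled arrays, with medians of 0.61 and 0.59 (-0.58 and -0.68 under housekeeping centring). Rpsa, the small subunit protein that also serves as a laminin receptor, rose by 1.34 ± 0.17 SE in Sf1-Cre, and Rplp2, of the stalk, by 0.79 ± 0.15 SE, with 0.15 and -0.40 under housekeeping centring. Of 14 elongation and release factors 6 rose and 1 fell in Sf1-Cre (median 0.26), and 1 rose and 11 fell under housekeeping centring. Gspt2, a release factor gene, rose by 1.58 ± 0.14 SE, and Eef2kmt, of the same list, by 1.16 ± 0.28 SE, with 0.39 and -0.03 under housekeeping centring. Etf1, which reads stop codons, fell by 0.48 ± 0.14 SE, but did not pass under quantile normalization (-0.33, limma adjusted p = 0.05955).

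Of 37 initiation factors 16 rose and 8 fell in Sf1-Cre, with a median of 0.32, against 46.6% higher, 33.2% lower and a median of 0.34 over all genes. Under housekeeping centring 3 of the 37 rose and 28 fell. Eif2s3x, the X-linked gene of the gamma subunit of eIF2, had means of log2 6.96 in Sf1-Cre and 3.44 in control, where both arrays were under the floor, so it was at least 7.80-fold higher in Sf1-Cre (adjusted p = 2.27e-05). The cap-binding gene Eif4e3 fell to a mean of 3.81, under the floor, in Sf1-Cre, against 6.83 in control, and Eif5b, needed for joining of the subunits, fell by 1.58 ± 0.18 SE. Pabpc4, a poly(A)-binding protein gene, rose by 2.28 ± 0.20 SE. These 4 kept their signs under housekeeping centring.

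Set beside the same 46.6% and 33.2% of all genes, 22 of 43 ribosome assembly genes rose and 9 fell in Sf1-Cre (median 0.33, -0.86 under housekeeping centring). Utp6 and Imp3, of the complex that processes small subunit RNA, rose by 2.83 ± 0.19 SE and 2.05 ± 0.13 SE. Sbds, which frees new large subunits for use, and Bysl, a small subunit assembly factor gene, fell by 2.21 ± 0.24 SE and 1.41 ± 0.19 SE. Of 76 mitochondrial ribosomal proteins 42 rose and 7 fell (median 0.52, -0.67 under housekeeping centring), led by Mrpl14 at 2.67 ± 0.26 SE and Mrpl23 at 2.51 ± 0.17 SE, and by Mrpl1 and Mrps36, which both fell by 1.32 (SE 0.24 and 0.29). Among 11 regulators of mRNAs with a 5' pyrimidine tract 6 rose and 2 fell (median 0.74, -0.45 under housekeeping centring). Mtor fell by 0.94 ± 0.15 SE and Larp1 by 0.73 ± 0.15 SE, while Rps6kb2, an S6 kinase gene, rose by 2.03 ± 0.31 SE and Rheb, an activator of mTOR, by 1.55 ± 0.19 SE (0.36 and adjusted p = 0.105 under housekeeping centring).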

How the data were processed

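Total RNA of testes was labelled with biotin by in vitro transcription and hybridised to 1 array of 45101 probe sets per sample, per the labels' protocols. The values deposited by the authors are intensities on a linear scale made with GCRMA, per the submitters' processing notes, with no version or settings stated there. In 6 arrays, 11.4% to 11.5% of the values are written with 3 digits. Log2 was taken here. Symbols and chromosomes follow the platform annotation and RefSeq GRCm38.p6, with 34754 of 34958 single-symbol probe sets matched by Entrez identifier, 932 sets with several symbols and 9211 with none listed.

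The means of the 3 groups were fitted to all 8 arrays with limma 3.58.1 in R 4.3.3 (5 residual and 2.73 prior degrees of freedom), and p-values are 2-sided, adjusted by Benjamini and Hochberg over 13802 genes. They measure only the spread between these samples. The fit was also run on simulated data in which only a small share of genes was changed. Against control most genes passed here, so that run does not cover a shift of most genes. Paralog pairs were compared by exact permutation tests over arrays (scipy 1.17.1). Figures were drawn with matplotlib 3.10.9 and pandas 2.3.3 in Python 3.11.15. Named genes were every paralog and its subunit, the 6 largest passing rises and falls among usual subunits per comparison, up to 4 with the smallest change among those that did not pass in Sf1-Cre, the X-linked subunits, Dmrt1, and in each list of translation genes the 2 largest passing rises and falls in Sf1-Cre. Others (Rps9, Rps19bp1, Rpl19, Rps7 and the sets that differed) were picked with their values in view. The members, lists and tests were chosen with earlier results of these data known. Alternatives were quantile normalization, housekeeping centring, no filter, a filter at log2 6, values under log2 4 set to 4, trended robust moderation, a fit of only 2 groups, the mean of all probe sets, no _x_at or _s_at sets, a threshold of 0.01, each array left out and the replicate number as a block. Sets with several symbols, and leaving out 3 arrays with high Spink8, were added after seeing the data.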

Additional observations from a re-analysis of the deposited data

Results flagged for a closer look

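In total 192 probe sets that hold a ribosomal protein gene were compared between Sf1-Cre and the Dhh-Cre-labelled arrays, in a limma fit over 25791 probe sets, and 5 differed between the groups with an adjusted p under 0.05, where 21.4% of all probe sets did. Their causes were not tested. The second Rps9 set differed by -3.634 (adjusted p = 5.21e-05), and the fitted difference of the set of Rps19 and Rps19-ps3 was 4.295 (adjusted p = 1.57e-05). Both arrays labelled Dhh-Cre were under the floor on that set, so it is given as a bound against the floor, at least 14.1-fold higher in Sf1-Cre. One set of Rpl3 with Gm5879 and Gm12816 differed by -1.089 (adjusted p = 0.0306), at log2 3.44 to 4.42 in Sf1-Cre and 5.02 and 5.21 in the Dhh-Cre-labelled arrays. Of the sets of Rpl29, which are shared with copies named Gm, 2 passed and the others did not. These 2 differed by 0.6539 (adjusted p = 0.0328) and 0.6372 (adjusted p = 0.027), with all 4 Sf1-Cre arrays above both arrays labelled Dhh-Cre. Named genes were also searched for an Sf1-Cre array far from the other 3. Chance marks about 1 in 20 groups this way, and 0 of the 18 groups examined were marked.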

How the results depend on the processing

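Housekeeping centring turned the direction of the family, while quantile normalization kept it, with medians of 0.73 in Sf1-Cre and 0.70 in Dhh-Cre. Without centring, the 17 housekeeping genes had medians of 1.17 in Sf1-Cre and 1.31 in Dhh-Cre, so they were not level themselves. Which scaling is nearer to the true levels was not tested. Under housekeeping centring the usual subunits were 5 higher and 24 lower in Sf1-Cre (median -0.47) and 4 higher and 27 lower in the Dhh-Cre-labelled arrays (median -0.66), and the median between the lines was 0.11. Only genes named by rule were searched for a turn, counted where the sign changed and the gene passed with or without centring. Usual subunits outside that rule, such as Rpl19, changed sign too and are not listed here. The genes named by rule that turned in Sf1-Cre were Rpl22 (-0.28), Rpl22l1 (-0.83), Rpl7 (-0.33), Rps20 (-1.12), Rps24 (-1.01), Rps27 (-0.36), Rps27l (-0.65) and Rps29 (-1.09). In the Dhh-Cre-labelled arrays they were Rpl22 (-0.46), Rpl22l1 (-1.11), Rpl7 (-0.48), Rps20 (-1.15), Rps24 (-1.09), Rps27 (-0.64), Rps27l (-0.64), Rps29 (-1.17) and Rps4l (-1.19). The Sf1-Cre median was 0.65 with no filter or with low values set to log2 4, and 0.86 without _x_at and _s_at sets. The Dhh-Cre median was 0.70 with quantile normalization, 0.69 with the mean of probe sets and 0.81 without _x_at and _s_at sets. With sets of several symbols, 46 were higher in Sf1-Cre (median 0.58) and 41 in Dhh-Cre (median 0.54). Between the lines, trended robust moderation gave 1 higher and the mean of probe sets 1 lower. Without the 3 arrays with high Spink8, 16 were higher in Dhh-Cre (median 0.68). Leaving out each array gave 22 to 30 higher in Sf1-Cre (median 0.65 to 0.76) and 20 to 27 in Dhh-Cre (median 0.58 to 0.68). Where 1 array was left in a group, it was assumed to vary like the others.

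The difference of Rps27l and Rps27 turned positive with quantile normalization (0.0055 in Sf1-Cre and 0.060 in Dhh-Cre) and, in Dhh-Cre, with the mean of probe sets (0.021). Leaving out each array, it ran from -0.61 to 0.024 in Sf1-Cre and from -0.32 to 0.31 in Dhh-Cre, and the difference of Rpl22l1 and Rpl22 between the lines from -0.0086 to 0.21. Replicate numbers showed no clear pairing of the samples. Deviations of same-numbered arrays from their group means correlated at -0.19 and 0.38 between Sf1-Cre and Dhh-Cre, 0.02 and -0.14 between Sf1-Cre and control and 0.03 between Dhh-Cre and control. The last value is the same for both replicate numbers by construction, as each of these groups has 2 arrays. With the replicate block, 20 usual subunits were higher in Sf1-Cre and 22 in Dhh-Cre, and Rpl39l and Rpl22l1 no longer passed in Sf1-Cre. Over all alternatives, 280 of the counts, medians and pair differences kept their direction and side of the threshold or stayed close, 21 moved and 9 turned sign. Signal over background limited 4 members, Rpl39, Rpl3l, Rps16 and Rps15a-ps6, which were under log2 4 in every array and were not tested.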
